A study of Homo sapiens with 12 samples.

Results

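Histone H3.1 and histone H3.3 were compared at a single time point, 24 h after D-alanine, in the same cell line. The members were all enriched regions on chromosomes 1 to 22 and X in the H3.1 24 h list and the H3.3 24 h list. There were 13611 H3.1 regions and 81370 H3.3 regions, together 94981 of the 161322 regions in the 6 lists of the series. A region or gene was called H3.1 only, H3.3 only or both according to which of the 24 h lists held a region there.

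Chromatin immunoprecipitation followed by sequencing was carried out in MCF10AER/vSrc cells of genotype WT, with 6 ChIP libraries and 6 input libraries. MCF10A is a widely used human breast epithelial line that does not form tumours. ER/vSrc stands for the viral Src kinase joined to part of the estrogen receptor, so that its activity can be switched on. For each histone there was 1 control library, 1 from cells 4 h after D-alanine and 1 from cells 24 h after it, and the labels give the dose as 10 nM. The design text places the reactive oxygen species made by the treatment in the nucleus. Neither a D-amino acid oxidase construct nor induction of v-Src is named in the labels, and the dose was not checked against another source. The libraries hold chromatin, so the labelled cell type could not be checked against marker expression. The antibody of the list called H3.1 covers H3.1 and H3.2 per the design text.

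Histone H3 comes in variants that differ by a few amino acids but enter chromatin by separate routes. H3.1 and H3.2 are made mainly in S phase and are laid down behind the replication fork by the CAF-1 chaperone. H3.3 is made throughout the cell cycle and is exchanged into chromatin outside replication, by the HIRA complex at active genes and regulatory elements and by DAXX with ATRX at repeats, pericentromeres and telomeres.

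The libraries were of similar depth, with 16837079 ChIP tags for H3.1 and 19576955 for H3.3. The lists were not of similar length, and 1.59% of the H3.1 tags against 8.90% of the H3.3 tags lay in regions. The H3.1 regions covered 7.45 Mb and the H3.3 regions 52.2 Mb. The file headers list a Poisson tag threshold of 12 for H3.1 and 14 for H3.3, yet regions with as few as 9 tags are listed on both sides. The sources used here do not explain this. With 1 library per side the differences below have no replicate check and no test was made. All intervals are exact 95% intervals (Clopper-Pearson for shares, conditional binomial for folds) and cover counting error only, and they make no allowance for regions having been selected on the same tags. A gene or stretch without a region was not called, and the histone may still have been present.

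Promoters are shown first, because sequence was at hand for them. The base composition of distal regions was not measured. RefSeq sequence (GRCh38.p14) covering 250 bases before to 50 bases after the gene start was at hand for 15811 genes. An H3.1 region met 414 of these windows (2.62%), an H3.3 region met 687 (4.35%), and regions of both lists met 4 (0.0253%). The 250 bases before the start are printed 5′ to 3′ on the gene's strand, with every CpG in capitals. The promoters of PXN and EIF5A are shown from among the 4 that regions of both lists met. PSAPL1 and REC114, described below, ranked higher by the smaller lower bound of fold. PXN encodes paxillin, a focal adhesion adaptor phosphorylated by Src, and its sequence (chr12:120265731-120265980, minus strand) holds 41 CpG. EIF5A encodes a translation elongation factor that carries hypusine, and its sequence (chr17:7306749-7306998, plus strand) holds 11 CpG.
PXN: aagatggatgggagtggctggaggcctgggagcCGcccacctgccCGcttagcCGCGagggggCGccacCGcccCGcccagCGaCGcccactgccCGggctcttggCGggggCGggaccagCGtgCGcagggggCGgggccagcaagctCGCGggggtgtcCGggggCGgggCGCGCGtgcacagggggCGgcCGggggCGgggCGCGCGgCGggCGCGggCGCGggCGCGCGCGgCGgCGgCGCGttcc
EIF5A: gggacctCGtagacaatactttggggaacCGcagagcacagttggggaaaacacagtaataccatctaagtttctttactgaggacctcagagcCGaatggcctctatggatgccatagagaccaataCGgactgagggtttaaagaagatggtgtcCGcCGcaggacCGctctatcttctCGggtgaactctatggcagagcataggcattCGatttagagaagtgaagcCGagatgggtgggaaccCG

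The next 4 promoters were met by H3.1 alone and have the highest lower bounds of fold among promoters whose printed bases an H3.1 region met. They are NLRP5, a maternal-effect gene of the oocyte (chr19:55986525-55986774, plus strand), DUSP3, a dual-specificity phosphatase (chr17:43778978-43779227, minus strand), TAC3, the neurokinin B precursor (chr12:57016530-57016779, minus strand), and TCP11, a testis gene (chr6:35141340-35141589, minus strand). They hold 9, 31, 2 and 25 CpG in the order given. DUSP3 and TCP11 are CpG-dense, while NLRP5 and TAC3 are not. H3.1 alone refers to the promoter window. As genes all 4 were called for both, with 3, 2, 1 and 1 H3.3 regions outside the window in the order given.
NLRP5: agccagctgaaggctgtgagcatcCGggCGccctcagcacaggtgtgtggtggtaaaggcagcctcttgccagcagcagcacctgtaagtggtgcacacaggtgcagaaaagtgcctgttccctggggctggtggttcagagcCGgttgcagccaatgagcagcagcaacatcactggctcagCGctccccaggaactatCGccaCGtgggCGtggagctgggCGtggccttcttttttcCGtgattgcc
DUSP3: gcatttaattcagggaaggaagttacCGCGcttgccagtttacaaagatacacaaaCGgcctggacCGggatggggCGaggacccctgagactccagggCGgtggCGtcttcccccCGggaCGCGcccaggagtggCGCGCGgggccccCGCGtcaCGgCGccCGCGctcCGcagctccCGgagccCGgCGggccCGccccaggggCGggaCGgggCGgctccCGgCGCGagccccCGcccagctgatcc
TAC3: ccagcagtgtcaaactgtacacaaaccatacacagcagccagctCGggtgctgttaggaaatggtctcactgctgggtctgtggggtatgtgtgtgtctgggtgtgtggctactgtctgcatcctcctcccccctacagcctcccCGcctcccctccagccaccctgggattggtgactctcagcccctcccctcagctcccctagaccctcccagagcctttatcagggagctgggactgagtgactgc
TCP11: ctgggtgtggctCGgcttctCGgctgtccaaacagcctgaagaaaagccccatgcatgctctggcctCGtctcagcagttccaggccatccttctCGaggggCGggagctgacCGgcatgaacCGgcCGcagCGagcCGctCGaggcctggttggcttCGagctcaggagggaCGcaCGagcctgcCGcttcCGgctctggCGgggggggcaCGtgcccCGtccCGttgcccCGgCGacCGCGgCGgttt

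The last 4 promoters were met by H3.3 alone and were chosen in the same way. They are LCE2A, a late cornified envelope gene of the skin barrier (chr1:152698095-152698344, plus strand), TARS2, the mitochondrial threonyl-tRNA synthetase (chr1:150487169-150487418, plus strand), ACACB, the mitochondrial acetyl-CoA carboxylase (chr12:109116337-109116586, plus strand), and SLC36A3, a member of the proton-coupled amino acid transporter family (chr5:151303767-151304016, minus strand). They hold 3, 12, 4 and 1 CpG in the order given. LCE2A carries a TATA box, and ACACB holds none of the motifs searched. ACACB also held 2 H3.1 regions outside the window, so as a gene it was called for both.
LCE2A: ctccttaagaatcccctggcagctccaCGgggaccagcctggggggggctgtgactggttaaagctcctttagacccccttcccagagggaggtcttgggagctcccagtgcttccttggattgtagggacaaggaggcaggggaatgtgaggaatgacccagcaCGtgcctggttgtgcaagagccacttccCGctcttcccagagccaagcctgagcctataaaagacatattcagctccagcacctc
TARS2: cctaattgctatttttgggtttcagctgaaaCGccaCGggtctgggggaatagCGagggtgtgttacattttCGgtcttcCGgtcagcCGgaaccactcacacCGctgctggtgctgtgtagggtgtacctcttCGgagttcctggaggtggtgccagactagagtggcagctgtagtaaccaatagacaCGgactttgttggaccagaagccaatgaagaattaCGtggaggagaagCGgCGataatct
ACACB: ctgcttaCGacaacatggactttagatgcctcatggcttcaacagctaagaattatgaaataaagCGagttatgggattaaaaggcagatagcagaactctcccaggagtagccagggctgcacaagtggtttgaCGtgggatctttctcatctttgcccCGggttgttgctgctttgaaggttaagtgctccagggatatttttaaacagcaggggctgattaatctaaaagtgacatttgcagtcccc
SLC36A3: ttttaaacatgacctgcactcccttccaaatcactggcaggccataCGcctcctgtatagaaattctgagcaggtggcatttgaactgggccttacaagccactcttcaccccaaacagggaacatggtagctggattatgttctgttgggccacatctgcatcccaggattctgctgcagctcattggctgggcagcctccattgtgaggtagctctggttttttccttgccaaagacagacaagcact

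The H3.1 region at NLRP5 (chr19:55986277-55987098) held 34 ChIP and 3 input tags, a fold over input of 12.2 (3.84 to 62.1). The H3.1 region at DUSP3 (chr17:43779140-43779640) also held 34 ChIP tags, against 4 input tags, with a fold of 9.15 (3.26 to 35.5). The H3.3 region at TARS2 (chr1:150487273-150488030) held 49 ChIP tags and 1 input tag, with a fold of 41.48 (7.1 to 1671). At LCE2A (chr1:152697808-152698580) the H3.3 region held 33 ChIP tags and no input tag, so that its fold has a lower bound of 7.15 and no upper bound. The H3.3 values were higher, but every upper bound is wide because few input tags were counted.

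The promoters met by H3.1 alone held somewhat more CpG than those met by neither, and the promoters met by H3.3 alone were CpG-poor. Over the whole window of 300 bases, the median number of CpG was 26 in the 410 promoters met by H3.1 alone, 9 in the 683 met by H3.3 alone and 22 in the 14714 met by neither. Fewer than 10 CpG were found in 58 of the 410 H3.1 promoters (14.1%, 10.9 to 17.9) and in 366 of the 683 H3.3 promoters (53.6%, 49.8 to 57.4), against 27.2% of all windows. Median GC content was 68% for H3.1 alone, 56% for H3.3 alone and 63% for neither. The intervals of the H3.1 and H3.3 shares do not overlap, and the share over all windows lies between them. These intervals count every window as separate, although 396 H3.1 regions met 414 windows and 646 H3.3 regions met 687.

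Across CpG density the lists ran in opposite directions at the extremes. In windows with 0 to 4 CpG an H3.1 region was found at 0.496% (0.265 to 0.847) and an H3.3 region at 7.33% (6.36 to 8.4). At 5 to 9 CpG the shares were 2.75% for H3.1 and 10.5% for H3.3, and at 10 to 19 CpG they were 3.01% and 6.36%. At 20 to 29 CpG the shares were close, 2.61% (2.14 to 3.14) and 3.03% (2.52 to 3.6). In windows with 30 to 69 CpG the order was reversed, with an H3.1 region at 3.53% (3.02 to 4.1) and an H3.3 region at 0.507% (0.325 to 0.754). H3.3 promoter calls therefore peaked at 5 to 9 CpG, and H3.1 calls were at their lowest in the windows with the fewest CpG. Input coverage also moved with the promoter calls. H3.1 regions at promoters held a mean of 5.28 input tags against 4.25 over all H3.1 regions, and H3.3 regions at promoters held 3.01 against 2.38. The part of base composition in ChIP or input recovery was not tested.

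**Figure D1:**
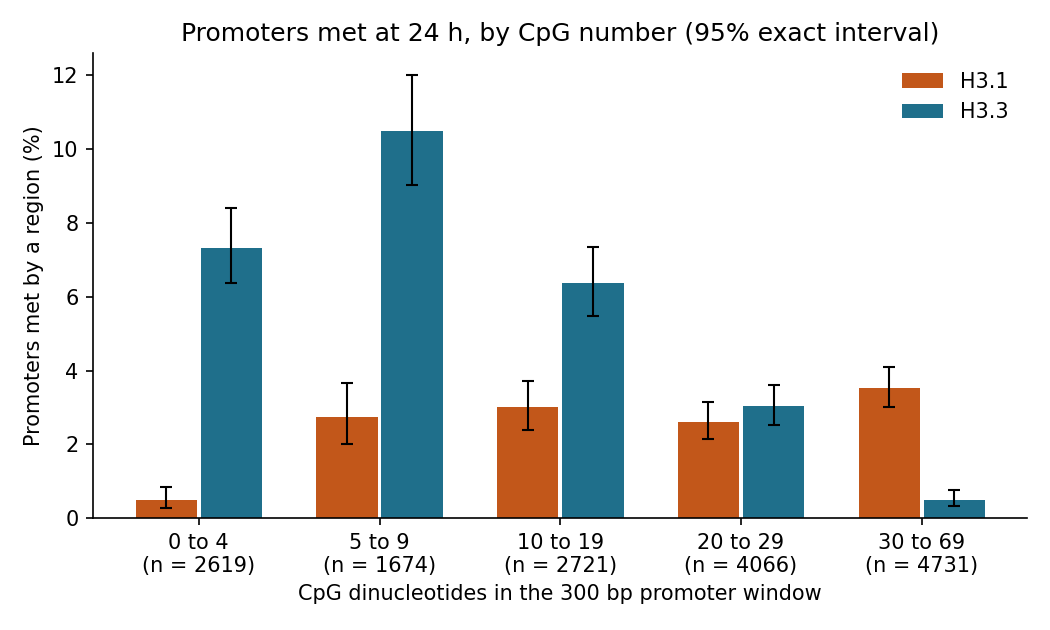
Share of promoter windows (percent, vertical axis) met by an H3.1 or an H3.3 region at 24 h, by the number of CpG in the window (horizontal axis), with exact 95% intervals for counting error. H3.3 falls from 10.5% at 5 to 9 CpG to 0.507% at 30 to 69 CpG, while H3.1 is at 0.496% in the lowest bin and between 2.61% and 3.53% in the others.

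Short motifs were looked for on both strands of the same windows. The GC box GGGCGG, the core of the site bound by Sp1, was in 73.2% of promoters met by H3.1 alone, 35.3% of those met by H3.3 alone and 58.3% of all windows. The CCAAT box was in 27.8%, 42.6% and 36.4% in the same order. The AP-1 element TGANTCA, recognised by Fos and Jun dimers, was in 4.39%, 9.22% and 5.7%. The TATA box TATAAA was in 5.85%, 11.3% and 9.75%. The antioxidant response element core TGACNNNGC, which NRF2 binds with small Maf proteins, was in 11.5%, 13.9% and 14.4%, so neither class was above all windows. The E-box CACGTG was in 10.5%, 8.64% and 8.82%. A GC box is itself made of G and C, so its share moves with the GC content given above. A match describes the letters only and does not show that a factor was bound.

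Only 4 promoters were met by regions of both lists, and the regions at them had low folds. At PSAPL1, a saposin-like gene, the H3.1 region (chr4:7434243-7434909) had a fold of 5.84 (2.58 to 15.5) and the H3.3 region (chr4:7434997-7436365) a fold of 4.23 (2.19 to 8.96). At REC114, a gene for meiotic break formation, the folds were 4.3 (1.39 to 17.7) for H3.1 and 5.08 (1.48 to 26.9) for H3.3. At PXN the H3.1 region (chr12:120265441-120265941) had a fold of 4.46 (1.91 to 12.1) and the H3.3 region (chr12:120265949-120266449) 5.93 (1.36 to 53.7). At EIF5A the folds were 4.04 (1.29 to 16.7) for H3.1 (chr17:7306348-7306848) and 4.8 (1.39 to 25.5) for H3.3 (chr17:7306759-7307259). The H3.1 and H3.3 regions overlapped each other at EIF5A and lay side by side at the other 3 promoters.

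Regions of the lists also lay differently around gene starts. The centre of an H3.1 region was within 500 bp of a start for 508 of the 13107 regions compared (3.88%, 3.55 to 4.22), and that of an H3.3 region for 670 of 77411 (0.866%, 0.801 to 0.933). Chromosome 8 was left out of this count, since promoter windows on it were not used here. Within 2 kb downstream of a start lay 6.14% of H3.1 centres and 2.04% of H3.3 centres. Within 2 kb upstream lay 3.27% and 1.77%. Both lists were denser on the transcribed side of the start than upstream of it. Most regions were distal in both lists, with 76.1% of H3.1 and 83.9% of H3.3 centres over 10 kb from a start. Starts were those of the 15811 genes with a promoter window, so a region at the start of another gene may count as distal.

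**Figure D2:**
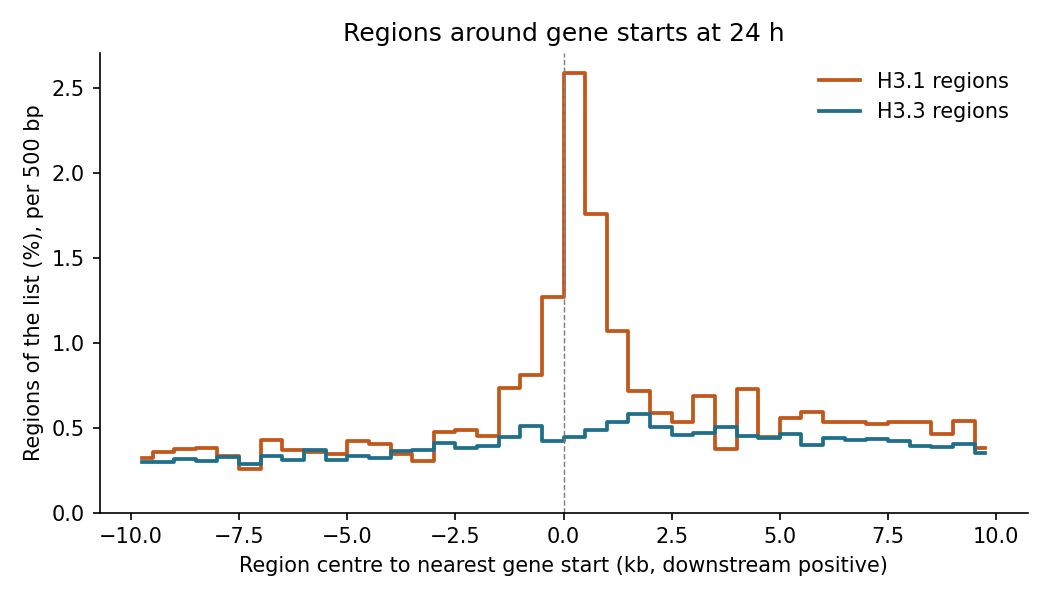
Share of each 24 h list (percent of regions, vertical axis) by distance of the region's centre from the nearest gene start (kb, horizontal axis, negative upstream), in bins of 500 bp. The H3.1 profile is highest just downstream of the start, at 2.59% of regions in that bin against 0.443% for H3.3.

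Counting both ends of protein-coding genes gave the same order. Of H3.1-only regions 19.7% (19 to 20.4) lay within 2 kb of a gene end, against 10.2% (10 to 10.5) of H3.3-only regions. The shared regions stood between, at 14.7% of the H3.1 side and 14.6% of the H3.3 side. The contrast narrowed among regions with high folds. At a fold of 8 or more, 10.4% (8.67 to 12.4) of H3.1 regions and 9.01% (8.72 to 9.3) of H3.3 regions were near a gene end, and these intervals overlap. At a fold under 5 the shares were 21.1% and 11.9%. The start-site contrast was kept at a fold of 8 or more, at 2.5% (1.64 to 3.65) for H3.1 and 0.722% (0.637 to 0.815) for H3.3.

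The fold over input itself differed between the lists. The median fold was 4.74 for H3.1 and 7.34 for H3.3, where the authors enter 0.5 for a region without input tags. A fold under 5, close to the required 4, was found in 57.2% of H3.1 regions and 18.7% of H3.3 regions. A fold of 8 or more was found in 8.04% and 46.5%. No input tag was counted in 0.624% of H3.1 regions and 13.3% of H3.3 regions. The number of ChIP tags per region was similar, with a median of 17 (range 9 to 86) for H3.1 and 18 (range 9 to 325) for H3.3. The higher H3.3 folds came with fewer input tags, a mean of 2.38 per region against 4.25 for H3.1. The input depth recovered for the H3.3 24 h list equals, within its precision, that of the H3.1 4 h and H3.3 control lists. Whether these were separate inputs or 1 input used for several lists cannot be told from the lists, and the H3.3 24 h folds rest on that input.

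Positions called for both histones were few in number. The H3.3 regions covered 52.2 Mb, and the overlap that unrelated placement would give was not computed. The shares below therefore show neither avoidance nor attraction between the lists. Of the H3.1 regions 563 overlapped an H3.3 region by at least 1 bp (4.14%, 3.81 to 4.48), and 562 H3.3 regions overlapped an H3.1 region (0.691%, 0.635 to 0.75). The overlap had a median of 151 bp, and 161 of the 563 (28.6%) lay over at least 250 bp. On the H3.3 side the shared regions had lower folds than the H3.3-only regions, with medians of 5.93 and 7.34. On the H3.1 side the medians were 4.66 for shared and 4.74 for H3.1-only regions. Shared H3.3 regions held more input tags, a mean of 3.24 against 2.37.

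The H3.1-only regions nonetheless lay near H3.3 regions. Their median distance to the nearest H3.3 region was 6.13 kb (quartiles 1.99 and 18.5), with 14.5% within 1 kb and 62.2% within 10 kb. Seen from the longer list, H3.3-only regions lay a median of 47.6 kb from an H3.1 region, and 18.2% were within 10 kb. The lengths of the lists enter both figures.

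The 8 shared positions ranked highest were at genes of varied function, and in every pair each fold had a lower bound of 2.29 or more. DYSF encodes dysferlin, a membrane repair protein. Its H3.1 region (chr2:71465913-71467219) held 45 ChIP and 9 input tags, with a fold of 5.38 (2.6 to 12.5). Its H3.3 region (chr2:71465422-71466048) held 23 ChIP tags and 1 input tag, with a fold of 19.47 (3.16 to 802), and the pair overlapped by 135 bp. TFDP1 encodes DP1, the dimer partner of E2F factors. Its H3.1 region (chr13:113633460-113634133) had a fold of 13.45 (3.36 to 117) and its H3.3 region (chr13:113633908-113634408) 16.08 (2.56 to 668). ADCY1, an adenylyl cyclase, had an H3.1 region of 629 bp lying wholly inside an H3.3 region of 3330 bp. The H3.1 fold there was 6.73 (2.32 to 26.6) and the H3.3 fold 4.58 (2.89 to 7.58), from 25 and 119 ChIP tags. The other 5 genes were ZSCAN1, SLC39A14, CMTM3, NEO1 and GPR137B, with overlaps of 26 to 284 bp. SLC39A14 encodes a zinc, iron and manganese importer and NEO1 encodes neogenin, a receptor for netrins and repulsive guidance molecules.

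At the level of genes the lists met far more often. A gene was called when a region met its span or its flanks of 2 kb. By this rule H3.1 was called at 5673 (28.4%) and H3.3 at 12013 (60.2%) of 19970 protein-coding genes. The classes were 1240 genes for H3.1 only (6.21%), 4433 for both (22.2%), 7580 for H3.3 only (38%) and 6717 for neither (33.6%). Of the genes with an H3.1 region 78.1% (77 to 79.2) also held an H3.3 region, and of those without one 53% (52.2 to 53.8) did. Only 358 of the 4433 genes called for both (8.08%) held regions that overlapped. In these 4433 genes the shortest gap between an H3.1 and an H3.3 region had a median of 2.39 kb, with quartiles of 0.659 and 7.64 kb. It was over 10 kb in 898 genes (20.3%).

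Gene length moved with the classes. The median length was 50.9 kb for genes called for both, 29.1 kb for H3.3 only, 14.7 kb for H3.1 only and 12.6 kb for neither. In the shortest quintile (0.051 to 6.49 kb) 9.31% of genes were H3.1 only, 6.11% both, 27.9% H3.3 only and 56.7% neither. In the longest (83.7 to 2474 kb) the shares were 3.66%, 40.7%, 42.3% and 13.3%. Genes with an H3.1 region held an H3.3 region more often than other genes within every quintile, at 39.6% against 33% in the shortest and 91.8% against 76% in the longest. The excess was smallest in the shortest genes. Of the H3.1-only genes 81.1% held a single region, against 42.8% of the H3.3-only genes. The edge of the gene window changed little, since widening it from 2 to 3 kb added 244 genes for H3.1 and 406 for H3.3.

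**Figure D3:**
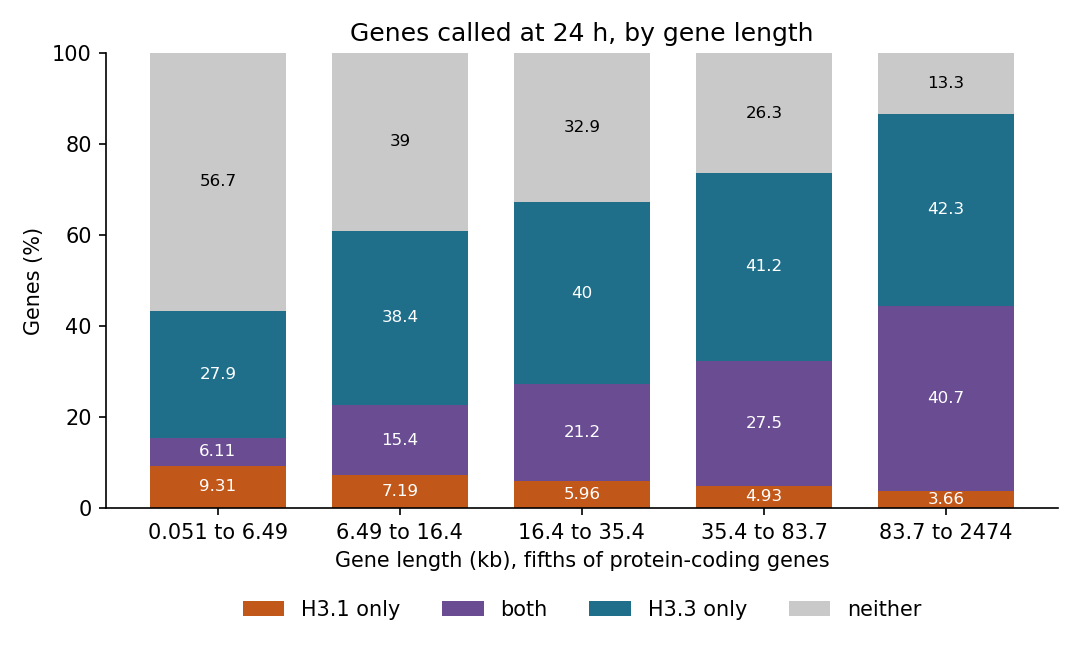
Share of protein-coding genes (percent, vertical axis) called for H3.1 only, both, H3.3 only or neither at 24 h, in quintiles of gene length (horizontal axis, shortest to longest). Genes called for both go from 6.11% to 40.7%, and genes called for H3.1 only from 9.31% to 3.66%.

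The sizes of the gene classes depended on the lengths of the lists. When the H3.3 list was reduced to its 13611 regions with the highest score, equal in number to the H3.1 list, there were 3669 genes for H3.1 only, 2004 for both and 2336 for H3.3 only. The order of the single-histone classes was then the reverse of that above. At a fold of 8 or more in both lists there were 211 genes for H3.1 only, 415 for both and 7758 for H3.3 only.

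Among genes called for H3.1 only, the 8 with the highest-ranked region held 1 to 3 H3.1 regions each. ZNF385D, a zinc finger gene of 961 kb, held 2 H3.1 regions, and the higher-ranked (chr3:22008272-22008772, inside the gene) had 19 ChIP tags and no input tag, a fold with a lower bound of 5.03. KLF5, an epithelial Kruppel-like factor, held 1 region (chr13:73075567-73076067) with 16 ChIP tags and no input tag, with a lower bound of 4.15. GFI1, a zinc finger repressor of blood cell development, held 3 regions, of which the highest-ranked (chr1:92483260-92483760) had 27 ChIP and 2 input tags, a fold of 14.53 (3.65 to 126). SOX1, a neural progenitor factor of 4.56 kb, held 1 region (chr13:112069727-112070227) with 21 ChIP tags and 1 input tag, a fold of 22.6 (3.64 to 935). NR1H2 encodes the oxysterol receptor LXR beta, and its region (chr19:50378952-50379452) had 15 ChIP tags and no input tag. CHMP6, a subunit of the ESCRT-III membrane scission complex, held the region with the most tags of the 8 (chr17:81000069-81000869), 52 ChIP and 7 input tags at a fold of 7.99 (3.62 to 20.9). BSPH1, a sperm-binding protein gene, and UBE2W, a ubiquitin-conjugating enzyme gene, completed the 8. These top regions thus rested on 14 to 52 ChIP tags, and in 5 genes on no input tag.

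The 8 genes called for H3.3 only with the highest-ranked regions had 42 to 78 ChIP tags in that region and at most 1 input tag. KDM5B, a demethylase of histone H3 lysine 4, held 4 H3.3 regions, and the highest-ranked (chr1:202796033-202797402, inside the gene) had 78 ChIP tags and 1 input tag, a fold of 66.02 (11.5 to 2640). GALNT10, an enzyme that starts mucin-type O-glycosylation, held 33 regions, of which the highest-ranked (chr5:154408859-154410025) had 49 ChIP tags and no input tag, with a lower bound of 10.8. ABCA13, a large ABC transporter gene of 476 kb, held 47 regions, with 47 ChIP tags and no input tag in the highest-ranked (chr7:48358940-48359717, lower bound 10.4). TNIP1, which encodes an inhibitor of NF-kappaB signalling, held 18 regions, with 44 ChIP tags and no input tag in the highest-ranked (lower bound 9.68). FNDC5, the precursor of irisin, held 2 regions in 10.2 kb. CFAP92, RAB3GAP2 and GPR143 held 10, 5 and 3 regions. Of these 8 genes KDM5B, FNDC5 and RAB3GAP2 lie on chromosome 1 and GALNT10 and TNIP1 on chromosome 5.

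Some genes held many regions of a single histone. Most H3.1 regions without any H3.3 region were in KNDC1 (12), NOTCH1 (10), BRSK2 (8) and LAMA5 (7). NOTCH1 encodes a receptor of cell fate signalling, and its highest-ranked region (chr9:136506548-136507927) had 64 ChIP and 16 input tags, a fold of 4.3 (2.46 to 7.98). LAMA5 encodes a laminin chain of epithelial basement membranes. The folds of the highest-ranked region in these 4 genes were 4.21 to 5.38, near the required fold of 4.

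Most H3.3 regions without any H3.1 region were in NAV1 (69), KCNIP1 (67), NFASC (49) and ABCA13 (47). NAV1 encodes a microtubule-associated neuron navigator, and its highest-ranked region (chr1:201598000-201600368) had 83 ChIP and 4 input tags, a fold of 17.56 (6.61 to 66). NAV1 and NFASC lie on 1q, KCNIP1 on 5q and ABCA13 on 7p. Among genes called for both, SDK1, a cell adhesion gene on 7p, held 7 H3.1 and 134 H3.3 regions. FSTL4 on 5q held 1 and 125, and TRAPPC9 on 8q held 10 and 113. RANBP2 held 15 and 96, but its span in the gene table, 1123 kb, takes in neighbouring genes.

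The widest regions were of different size in the lists. The widest H3.1 region was at ADGRA1 (chr10:133127066-133130107), with 3041 bp, 82 ChIP and 21 input tags and a fold of 4.2 (2.58 to 7.15). The next were at TERT, the telomerase catalytic subunit gene, with 2466 bp and a fold of 4.14 (2.51 to 7.16), and at PCDHA6, a clustered protocadherin gene. The widest H3.3 region was at TMEM9 on 1q (chr1:201135886-201142080), with 6194 bp, 325 ChIP and 65 input tags and a fold of 4.23 (3.23 to 5.61). FSTL4 and DDX56 followed with 5497 and 5351 bp. Of H3.3-only regions 8.68% were wider than 1 kb, against 1.4% of H3.1-only regions.

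Along the chromosomes the ratio of H3.3 to H3.1 regions was uneven. On 1q there were 3.01 H3.1 and 53.7 H3.3 regions per Mb, a ratio of 17.8. On 7p there were 4.39 and 69.3 per Mb (ratio 15.8), on 5q 2.79 and 33 (11.8), and on 8q 3.08 and 27.8 (9.03). At the other end, leaving out 21p with its 13 H3.1 and 30 H3.3 regions (ratio 2.31), 19p held 19.3 and 45 per Mb (2.33), 16p 9.84 and 31 (3.15), and 4p 6.04 and 20.4 (3.38). The H3.3 density of 1q was matched on 20q (56 per Mb), 19q (53.6) and 22q (64.2), where H3.1 density was higher (9.69, 12 and 15.6). On 5q and 8q the H3.3 densities lay among those of other arms, such as 36.1 on 1p and 33.5 on 15q, and the H3.1 densities were lower than there. Mean input tags per H3.3 region were 3.4 on 1q, 3.47 on 7p, 2.85 on 5q and 2.54 on 8q, against 2.38 over all H3.3 regions, and 2.64 on 19p. In H3.1 regions the means were 4.2 on 1q, 5.03 on 7p, 4.16 on 5q and 4.61 on 8q, against 4.25 over all. Copy number was not measured, and its part in these densities was not tested. Among genes, 56.7% on 1q were H3.3 only and 2.47% H3.1 only, while on 19p 26.7% were H3.3 only and 13.3% H3.1 only.

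**Figure D4:**
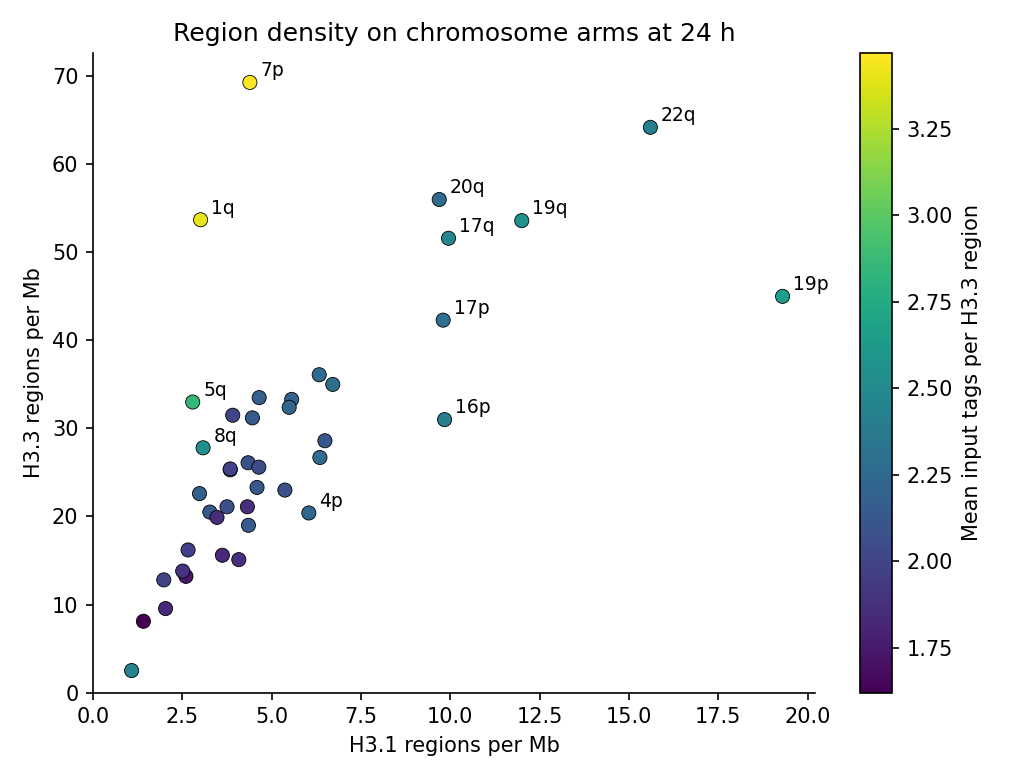
H3.1 regions per Mb (horizontal axis) and H3.3 regions per Mb (vertical axis) at 24 h, with 1 point per chromosome arm coloured by the mean number of input tags per H3.3 region. The arms 1q and 7p stand high at 53.7 and 69.3 H3.3 regions per Mb with 3.01 and 4.39 H3.1 regions per Mb, and 19p stands to the right with 19.3 H3.1 regions per Mb.

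Within 5 Mb of a chromosome end lay 31.2% (30.5 to 32) of H3.1-only regions, 13.2% (12.9 to 13.4) of H3.3-only regions and 25.8% of the shared H3.1 regions. The same held for genes, of which 30.5% of the H3.1-only class, 19.9% of the class for both and 9.51% of the H3.3-only class were this close to an end, against 13.4% of all genes. At a fold of 8 or more the shares of regions were 21.8% and 11.5%. In 3020 bins of 1 Mb, the H3.1 and H3.3 counts had a Spearman correlation of 0.723, given as a description since bins share gene density and base composition. The number of H3.3 regions per H3.1 region was 4.52 in bins without a gene, 7.52 in bins with 1 to 5 genes, 6.75 with 6 to 15, 4.9 with 16 to 30 and 2.99 with 31 or more, so it did not fall steadily with gene density.

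The 12 gene lists below are described by counts, to be read against 28.4% of all genes with an H3.1 region and 60.2% with an H3.3 region. Among 25 H3 chaperones and exchange factors 15 were H3.3 only, 4 both, 1 H3.1 only and 5 neither. HIRA, the core of the complex that deposits H3.3 outside replication, held 13 H3.3 regions, with 32 ChIP and 2 input tags in the highest-ranked (chr22:19360521-19361716, fold 13.54, 3.45 to 117). CHAF1A, the large subunit of CAF-1, held 5 H3.3 regions. NASP, a chaperone that keeps a pool of soluble H3, held 2, with 26 ChIP tags and no input tag in the highest-ranked (lower bound 5.55). CABIN1 and UBN1, subunits of the HIRA complex, were called for both, with 2 H3.1 and 28 H3.3 regions at CABIN1 and 2 and 5 at UBN1. DAXX, the chaperone that works with ATRX, was the 1 gene called for H3.1 only, with 16 ChIP and 3 input tags (chr6:33317996-33318624, fold 5.74, 1.64 to 30.8). ATRX held 2 H3.3 regions. Of the 11 histone variant genes 6 were H3.3 only, among them H3-3B, which encodes H3.3 (34 ChIP and 2 input tags, fold 14.39, 3.69 to 124). H3-3A, the other gene for H3.3, was called for neither.

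Genes of the oxidative stress response did not stand above the background for either histone. Of 36 NRF2 targets and antioxidant enzymes 3 were H3.1 only, 5 both, 14 H3.3 only and 14 neither, so that 22.2% held an H3.1 and 52.8% an H3.3 region. KEAP1, the NRF2 inhibitor, was H3.1 only at a fold of 4.04 (1.29 to 16.7). GSR, glutathione reductase, was H3.1 only with 13 ChIP tags and no input tag (lower bound 3.28). HMOX1, heme oxygenase 1, held 3 H3.3 regions, with 14 ChIP tags and no input tag in the highest-ranked (lower bound 2.81). GPX4, which reduces lipid peroxides, held 1 region of each, an H3.1 region (chr19:1105218-1106012) at a fold of 4.3 (2.12 to 9.66) and an H3.3 region (chr19:1101171-1103205) at 7.74 (3.55 to 20). NFE2L2, NQO1 and CAT were called for neither. DAO, the gene for D-amino acid oxidase, which oxidises D-alanine, was also called for neither.

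Of 30 genes for repair of oxidised bases and strand breaks 17 were H3.3 only, 2 both, 2 H3.1 only and 9 neither. OGG1, the glycosylase for 8-oxoguanine, held 2 H3.3 regions, and PARP1, the poly(ADP-ribose) polymerase that senses breaks, held 16 (24 ChIP tags and 1 input tag in the highest-ranked, fold 20.31, 3.31 to 835). NTHL1, a glycosylase for oxidised pyrimidines, was H3.1 only at a fold of 6.46 (2.22 to 25.6). Of 20 p53 targets 9 were H3.3 only, 2 H3.1 only (GADD45A and TIGAR), 1 both (CDKN1A, the p21 inhibitor of cyclin-dependent kinases) and 8 neither.

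Genes of the Src and MAPK pathways held H3.1 regions more often than genes at large. Of 37, 5 were H3.1 only, 14 both, 11 H3.3 only and 7 neither, so that 51.4% held an H3.1 region against 28.4% of all genes. SRC held 1 H3.1 and 12 H3.3 regions, and regions of the lists overlapped there. EGFR, the epidermal growth factor receptor, held 1 H3.1 region (chr7:55181341-55181841, fold 4.84, 1.6 to 19.7) and 40 H3.3 regions, of which the highest-ranked (chr7:55037642-55038599) had 47 ChIP tags and 1 input tag (fold 39.78, 6.8 to 1604). The H3.1-only members were short genes of 1.83 to 5.82 kb. JUN and JUNB, subunits of AP-1, had 50 ChIP and 13 input tags (chr1:58783045-58783672, fold 4.14, 2.22 to 8.31) and 30 and 7 tags (chr19:12791838-12792338, fold 4.61, 1.99 to 12.4). EGR3, HRAS and SPRY2, an inhibitor of receptor tyrosine kinase signalling, were the others.

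Homeobox and developmental regulators gave a similar share, with 50% of 38 genes holding an H3.1 region. The 7 genes called for H3.1 only included PAX6, the eye and neural tube factor, with 3 regions and 34 ChIP and 7 input tags in the highest-ranked (chr11:31819779-31820404, fold 5.23, 2.28 to 14), and HOXD10, DLX5 and NKX6-1. GATA2, a blood stem cell factor, held an H3.1 region (chr3:128490067-128490567) with 26 ChIP tags and 1 input tag (fold 27.98, 4.6 to 1148) and an H3.3 region at a fold of 5.08 (1.48 to 26.9). PAX7 held 21 H3.3 regions and no H3.1 region, and HOXA13 held 2, with 25 ChIP tags and no input tag in the highest-ranked (lower bound 5.32).

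Among 27 Polycomb and heterochromatin genes 10 (37%) held an H3.1 region. Their median length was 38.5 kb, and 32.5% of all genes of 35.4 to 83.7 kb held an H3.1 region. The H3.1-only members included CBX8 and RING1, both subunits of Polycomb repressive complex 1. CBX8 (chr17:79793245-79793874) had a fold of 6.03 (2.3 to 20) and RING1 one of 4.04 (1.29 to 16.7). DNMT3A, a de novo DNA methyltransferase, held 10 H3.1 and 16 H3.3 regions that overlapped at some position. EZH2, the Polycomb methyltransferase of H3 lysine 27, held 2 H3.3 regions.

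Drug efflux and resistance genes had 10 of 22 with an H3.1 region (45.5%). These genes are long, with a median of 67.4 kb against 24.2 kb over all genes. In the length quintile of 35.4 to 83.7 kb 32.5% of all genes held an H3.1 region, and in the longest quintile 44.4%. The part of length in the share of this list was not tested. ABCB1, which encodes P-glycoprotein, held 1 H3.1 region (chr7:87600593-87601290, fold 5.11, 1.7 to 20.7) and 2 H3.3 regions, of which the highest-ranked (chr7:87671982-87672644) had 19 ChIP tags and no input tag (lower bound 3.95). The nearest of them was 52667 bp from the H3.1 region. ABCC1, the transporter MRP1, held 2 H3.1 and 20 H3.3 regions.

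Epithelial and mesenchymal genes were alike in their counts. Of 30 epithelial genes 2 were H3.1 only, 5 both, 20 H3.3 only and 3 neither, and of 30 mesenchymal genes 2, 5, 18 and 5. LAMB3, a laminin chain of the epidermal basement membrane, held 2 H3.1 and 12 H3.3 regions, and the closest pair lay 329 bp apart. GRHL2, an activator of epithelial genes, held 12 H3.3 regions and no H3.1 region. CDH1, which encodes E-cadherin, held 1 H3.1 and 3 H3.3 regions, while CDH2, which encodes N-cadherin, held 2 H3.3 regions. COL5A1, a fibrillar collagen gene, held 16 H3.1 and 24 H3.3 regions. SPARC, a matrix glycoprotein gene on 5q, had 81 ChIP and 3 input tags in its highest-ranked H3.3 region (chr5:151665111-151666639, fold 22.85, 7.54 to 113).

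Ribosomal protein and housekeeping genes were the list with the fewest regions of either histone. Of 30, 19 were called for neither, 10 for H3.3 only, 1 for H3.1 only (RPL13) and 0 for both. An H3.1 region was held by 3.33% and an H3.3 region by 33.3%. RPL3 had 27 ChIP tags and no input tag in its highest-ranked H3.3 region (lower bound 5.78), and ACTB and GAPDH held 1 H3.3 region each. These genes are short, with a median of 4.97 kb against 24.2 kb over all genes. In the length quintile of 0.051 to 6.49 kb 15.4% of all genes held an H3.1 region and 34% an H3.3 region. In the quintile of 6.49 to 16.4 kb the shares were 22.6% and 53.8%. The H3.3 share of the ribosomal and housekeeping list was thus close to that of the shortest genes, and its H3.1 share was lower. The homeobox genes were also short, with a median of 6.51 kb, and held H3.1 regions 50% of the time. The part of length in these shares was not tested.

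**Figure D5:**
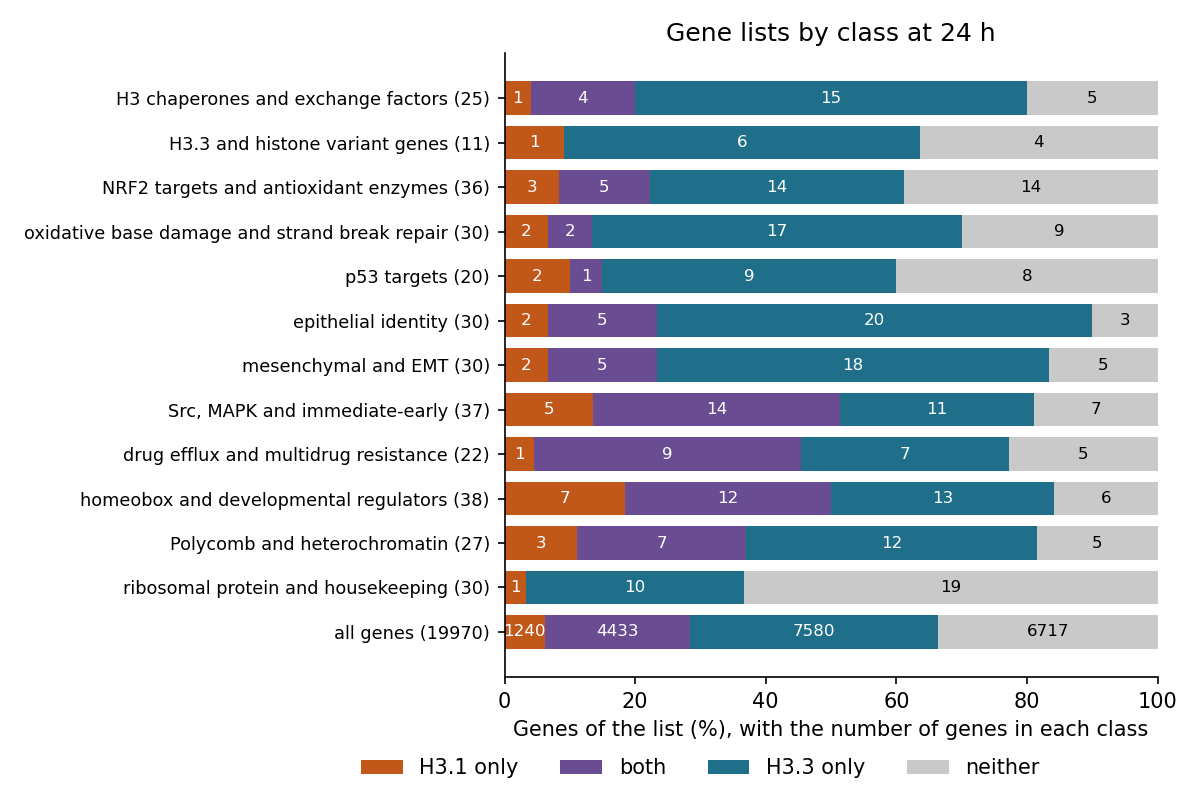
Share of genes (percent, horizontal axis) called for H3.1 only, both, H3.3 only or neither at 24 h in each of the 12 gene lists and in all genes (vertical axis, number of genes in brackets), with the number of genes printed in each bar. H3.1 only and both together reach 51.4% in the Src and MAPK list against 28.4% of all genes, and 19 of the 30 ribosomal and housekeeping genes are called for neither.

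The same pairing of lists in control cells and at 4 h gave other proportions. In control cells 5795 genes were H3.1 only (29%), 3055 both (15.3%) and 1190 H3.3 only (5.96%). At 4 h there were 2582 (12.9%), 838 (4.2%) and 953 (4.77%). Shared positions made up 1.51% of the control H3.1 list, 1.89% of the 4 h list and 4.14% of the 24 h list. On the H3.3 side the shares were 6.94%, 4.15% and 0.691% in the same order. These shares move with the lengths of the lists. The control lists held 44966 H3.1 and 9839 H3.3 regions, and the 4 h lists 7922 and 3614. Of the 5795 genes that were H3.1 only in control cells, 3178 (54.8%) were H3.3 only at 24 h, 1710 (29.5%) both and 206 (3.55%) H3.1 only, against 38%, 22.2% and 6.21% of all genes. These shares were not matched for gene length, and an H3.3 region at 24 h was held by 34% of the shortest and 83% of the longest quintile. Of the genes that were H3.1 only at 24 h, 631 (50.9%) had been called for neither in control cells, close to the 49.7% of all genes called for neither there. H3.3-only regions at 24 h overlapped an H3.1 control region in 18.5% of cases and an H3.3 control region in 0.474%. H3.1-only regions at 24 h overlapped an H3.1 control region in 6.08% and an H3.3 control region in 6.13%. The control lists covered 27.8 Mb for H3.1 and 5.41 Mb for H3.3, so near-equal shares do not mean equal resemblance. Relative to list length, the single-histone regions of each 24 h list met the other histone's control list more often than their own. Against the 4 h lists, which covered 4.24 Mb for H3.1 and 1.88 Mb for H3.3, this was not seen. In that order, H3.1-only regions overlapped them in 4.02% and 1.69%, and H3.3-only regions in 0.501% and 0.261%. Shared H3.1 regions overlapped an H3.1 control region in 22.2% and an H3.3 control region in 3.55%. The cause of these differences was not tested.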

How the data were processed

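Reads were single-end and had 50 bases, as stated in the labels' protocols. The submitters' processing notes list cutadapt 3.7, Bowtie2 2.4.1, HOMER 4.11.1 and hg38. Per the file headers, the authors called regions library by library against input (peak size 500 bp, spacing 1000 bp), with a fold of at least 4 and a Poisson p-value of 1e-04 over input. The deposited values used were the ChIP tag count, the input tags (a signal, with 0.5 standing for none), the fold (a ratio at equal depth), and the score, by the authors. The deposited p-value was not used to rank regions.

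Regions on chromosomes 1 to 22 and X were compared at 1 bp of overlap. Genes and promoters came from RefSeq tables (GRCh38.p14), and all 336 list entries were matched by symbol. Chromosome arms were split at approximate centromere positions, and copy number was not used. Counting used Python 3.11.15, pandas 2.3.3 and scipy 1.17.1, and was tested on simulated data.

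Members and lists were chosen with earlier results of these data known. Named genes were ranked by the lower bound of the 95% interval of fold: the top 8 per class and at shared positions, the 4 with most regions per class, the 3 widest regions per list, up to 4 per class in each list, and promoters met by both. Other list members, and the promoters printed for a single histone, were chosen after their values were seen. No test was made with 1 library per side. Alternatives were another overlap, a fold of 8, equal list length, other gene windows, no chromosome 19 and no arms 1q, 5q, 7p and 8q.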

Additional observations from a re-analysis of the deposited data

Results flagged for a closer look

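Regions on unplaced contigs take no part in the comparisons above. The H3.1 24 h list held 29 of them (0.213% of its regions) and the H3.3 24 h list 33 (0.0405%). The control lists held 23 (0.0511%) and 24 (0.243%), and the 4 h lists 25 (0.315%) and 13 (0.358%). They are named here because both 24 h counts were above those of the controls, although as a share of the list only H3.1 was above its control. Both 24 h shares were below those of the 4 h lists. The difference was not tested.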

How the results depend on the processing

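Each value is from 1 library per side, so leaving out a replicate was not possible, and no interval covers the spread between cultures. No paired analysis was possible because each group has 1 sample. Of 87 alternative values, 40 stayed within their interval, or within 1.5 times for a count, and 47 moved. The chromosome-end, gene-start, CpG and arm alternatives were chosen after seeing the data. The shared part of the H3.1 list (4.14%) was 1.18% at 250 bp of overlap, 18.1% within 1 kb, 1.01% at a fold of 8, and 0.705% or 0.382% at equal list length by score or by lower bound of fold. The shared part of the H3.3 list (0.691%) was 0.198%, 3.25%, 0.0291% and, by lower bound, 0.382%, and 0.776% without arms 1q, 5q, 7p and 8q. Genes for H3.1 only (1240) were 211 at a fold of 8, 3669 and 3749 at equal length by score and lower bound, and 463 with at least 2 regions. Genes for H3.3 only (7580) were 2336 and 2372 at equal length. Genes for both (4433) were 415 at a fold of 8, 2004 and 1924 at equal length, 1197 at gene ends only and 1464 with at least 2 regions. The H3.1-only share near gene ends (19.7%) was 10.5% at a fold of 8, 19% without chromosome 19 and 9.67% within 500 bp. The H3.3-only share (10.2%) was 10% with 1 kb counted as shared, 9.01%, 12.8% and 9.79% at a fold of 8 and equal length, 9.76% without chromosome 19, 3.88% within 500 bp and 10.8% without the 4 arms. Near chromosome ends the H3.1-only share (31.2%) was 32.2% with 1 kb counted as shared, 21.6% at a fold of 8 and 32.2% without the 4 arms. The H3.3-only share (13.2%) was 12.9% with 1 kb, 11.5% at a fold of 8, 14.6% and 10.4% at equal length, 12.9% without chromosome 19 and 13.9% without the 4 arms. Within 500 bp of a gene start H3.1 (3.88%) was 2.5% at a fold of 8, and H3.3 (0.866%) was 0.722% at a fold of 8 and 1.43% and 0.79% at equal length. The CpG-poor share of H3.3 promoters (53.6%) was 57.6% at a fold of 8 and 41.8% and 61% at equal length. Fewer regions enter by construction at a fold of 8 and at equal length, and the cause of the other shifts was not tested.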

Other observations

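Of 1558 miRNA hairpins in the RefSeq table, 30 (1.93%) were met by an H3.1 region alone, 63 (4.04%) by an H3.3 region alone and 0 by regions of both lists at 24 h. Promoter windows of 300 bases were met at 2.62% by H3.1 and 4.35% by H3.3. The widths of hairpins and windows were not matched, so these shares cannot be ranked against each other. MIR23B and MIR27B, neighbours in a cluster on chromosome 9, were met by H3.1. MIR130A on chromosome 11, MIR29C on chromosome 1 and MIR195 on chromosome 17 were met by H3.3. These names were chosen after their calls were seen.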
